A study of Mus musculus with 19 samples.

Results

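Cytochrome c oxidase is described here by 10 of its nuclear subunit genes, out of 21000 protein-coding genes with a curated transcript in the mouse genome (mm10, the GRCm38 assembly). The genes were Cox4i1, Cox4i2, Cox5a, Cox6a1, Cox6a2, Cox6b1, Cox7a1, Cox7a2, Cox8a and Cox8b. They were picked by name, and Cox4i1 was chosen on its measured values: it was picked for its high neonatal coverage, so its pattern is a description, and no test of it is offered. Each gene was taken with 5 kb on each side, its window, and the measure was the percent of the window covered by peaks of 5-hydroxymethylcytosine (5-hmC), the oxidised form of methylated cytosine that TET enzymes make. Cox6a2, Cox7a1 and Cox8b encode heart and skeletal muscle isoforms, Cox4i2 encodes an isoform known from lung, and the other 6 encode isoforms found in most tissues, called ubiquitous below.

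The samples were cardiomyocytes (CMCs) of C57BL/6J mice from 4 groups, each in 2 biological replicates: embryos at E14.5, neonatal pups of at most 2 days, adults of 2 months, and adults operated 1 week earlier by transverse aortic constriction (TAC), which narrows the aorta and puts the left ventricle under pressure overload. DNA carrying 5-hmC was pulled down with an antibody and sequenced (hMeDIP), and peaks were called in each replicate against input DNA. Adult and TAC CMCs came from the left ventricle of male mice by perfusion and sedimentation, E14.5 and neonatal CMCs from digested ventricles by low-speed centrifugation and plating. The age step therefore also changes the tissue dissected and the isolation, no library of sham-operated mice was used here, and the preparations held some cells without sarcomeric actinin. In such bulk DNA, a change in the mix of cells and a change within CMCs cannot be told apart.

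Cytochrome c oxidase, or complex IV, is the last enzyme of the respiratory chain: it passes electrons from cytochrome c to oxygen and pumps protons across the inner mitochondrial membrane. Its catalytic core is encoded by mitochondrial DNA, and the nuclear subunits around the core stabilise and tune it. Subunits 6a, 7a and 8 exist in a ubiquitous form and in a form of heart and skeletal muscle, which the heart takes up as it matures.

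Some sequences from these windows are shown here, 5′ to 3′ on the strand of the gene, with each CpG, the site at which cytosine is usually methylated, in capitals. The first pair covers the 250 bases before the transcription start of Cox8a (chr19:7217617-7217866, minus strand) and of its muscle counterpart Cox8b (chr7:140900447-140900696, minus strand), from RefSeq on GRCm38. The ubiquitous promoter held 11 CpG and the muscle promoter 1.
Cox8a: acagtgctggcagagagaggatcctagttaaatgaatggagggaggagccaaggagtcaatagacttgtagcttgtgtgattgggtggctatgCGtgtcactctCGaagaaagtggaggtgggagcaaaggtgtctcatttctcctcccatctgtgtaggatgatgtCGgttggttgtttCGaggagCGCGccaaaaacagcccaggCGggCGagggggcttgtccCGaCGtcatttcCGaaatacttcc
Cox8b: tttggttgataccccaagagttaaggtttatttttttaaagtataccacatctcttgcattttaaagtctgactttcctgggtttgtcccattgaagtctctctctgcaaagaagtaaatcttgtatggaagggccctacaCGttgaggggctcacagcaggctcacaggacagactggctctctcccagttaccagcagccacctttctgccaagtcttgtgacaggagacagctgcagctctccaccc

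The next 2 sequences are stretches within the gene body (GB, the span from transcription start to end) of ubiquitous isoforms that lay under peaks in 5 of the 8 lists. That of Cox4i1 (chr8:120672739-120672978, plus strand) is 240 of 285 shared bases, of which 154 are exonic and 86 intronic, and held 7 CpG. That of Cox6a1 (chr5:115345846-115345982, minus strand) is 137 of 446 shared bases, with 81 exonic, and held 6 CpG. The most shared stretches of the ubiquitous Cox6b1 and Cox8a, not printed, lay under peaks in 6 lists and held fewer CpG. That of Cox6b1, 37 bases in an intron, held 1 CpG, and that of Cox8a, 169 bases before the start, held 2. No contrast in CpG between the classes is read from the printed stretches.
Cox4i1: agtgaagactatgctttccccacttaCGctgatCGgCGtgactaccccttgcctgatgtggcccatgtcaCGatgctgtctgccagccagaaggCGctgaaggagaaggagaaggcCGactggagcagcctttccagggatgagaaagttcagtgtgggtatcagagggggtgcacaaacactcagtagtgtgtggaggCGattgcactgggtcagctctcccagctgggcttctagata
Cox6a1: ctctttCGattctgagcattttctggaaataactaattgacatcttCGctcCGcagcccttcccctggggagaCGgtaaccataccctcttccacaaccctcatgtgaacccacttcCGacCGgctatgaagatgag

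The last 3 are the stretches most often under peaks in the windows of the muscle isoforms, and all lie beyond the 3′ end of the gene. That of Cox6a2 (chr7:128203501-128203674, minus strand) was covered in 7 lists, lies on the neighbouring integrin gene Itgad and held 4 CpG. That of Cox7a1 (chr7:30186532-30186771, plus strand) is the middle of 704 bases covered in 7 lists, lies between genes and held 1 CpG. That of Cox8b (chr7:140896826-140897008, minus strand) was covered in all 8 lists, lies in an intron of the proteasome gene Psmd13 and held 0 CpG. The sequences of Cox7a1 and Cox8b are rich in alternating TG and TATG.
Cox6a2: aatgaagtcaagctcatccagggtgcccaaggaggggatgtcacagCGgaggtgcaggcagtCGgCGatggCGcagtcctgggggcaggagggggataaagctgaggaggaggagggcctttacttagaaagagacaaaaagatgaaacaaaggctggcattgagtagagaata
Cox7a1: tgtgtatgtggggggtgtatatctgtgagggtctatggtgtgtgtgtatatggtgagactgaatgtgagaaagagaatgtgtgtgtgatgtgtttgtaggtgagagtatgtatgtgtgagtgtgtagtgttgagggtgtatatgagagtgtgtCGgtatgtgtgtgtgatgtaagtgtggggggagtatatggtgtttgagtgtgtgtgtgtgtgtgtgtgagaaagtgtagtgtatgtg
Cox8b: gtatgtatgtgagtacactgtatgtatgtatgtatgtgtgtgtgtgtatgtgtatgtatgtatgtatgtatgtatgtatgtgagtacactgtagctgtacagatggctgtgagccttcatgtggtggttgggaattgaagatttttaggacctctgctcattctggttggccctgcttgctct

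Over the whole series, the 8 lists held 104215 to 153637 peaks and covered 2.71% to 4.89% of the autosomes. Over all lists, median coverage was highest for the 9 cardiomyocyte marker genes, at 22.7% of the window. It was 5.95% for 6 endothelial and 1.53% for 8 fibroblast markers. Single markers overlapped: the cardiomyocyte marker Pln had a mean of 3.10%, the endothelial Pecam1 16.4% and the fibroblast Col1a1 11.6%. Neonatal and adult replicate 2 covered more of the genome than their replicate 1, and TAC replicate 2 had the narrowest peaks (mean 606 bp) and the lowest coverage, 3.78% of the average gene window against 4.81% to 7.66% in the other lists. The file headers named 2 ways of scaling, by the control in both E14.5 lists and in neonatal and adult replicate 1, and by the precipitate in the other lists.

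The mean of the 10 oxidase windows was above the average gene in all 8 lists, by 1.79 to 3.08 times. The 3 muscle windows had 3.45 to 5.32 times the average. The mean of the 6 ubiquitous windows was below the average in both E14.5 lists (0.851 and 0.597 times) and in TAC replicate 2 (0.840 times). This mean includes Cox4i1, picked for its high neonatal coverage. In any given list 8 to 10 of the 10 had a peak. The genes are short, with a median span of 3960 bp against 16724 bp over all genes, so the flanks weigh more in their windows. By the mean over the 8 lists the order was Cox8b (30.2%), Cox6a2 (26.5%), Cox7a1 (20.8%), Cox4i1 (17.6%), Cox8a (13.8%), Cox4i2 (10.8%), Cox6a1 (9.40%), Cox6b1 (9.14%), Cox5a (4.91%) and Cox7a2 (2.05%). No neighbours in this order differed by more than the SD of their difference over the lists, the closest being Cox6b1 and Cox5a with a difference of 4.22 and an SD of 4.33 percentage points.

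**Figure D1:**
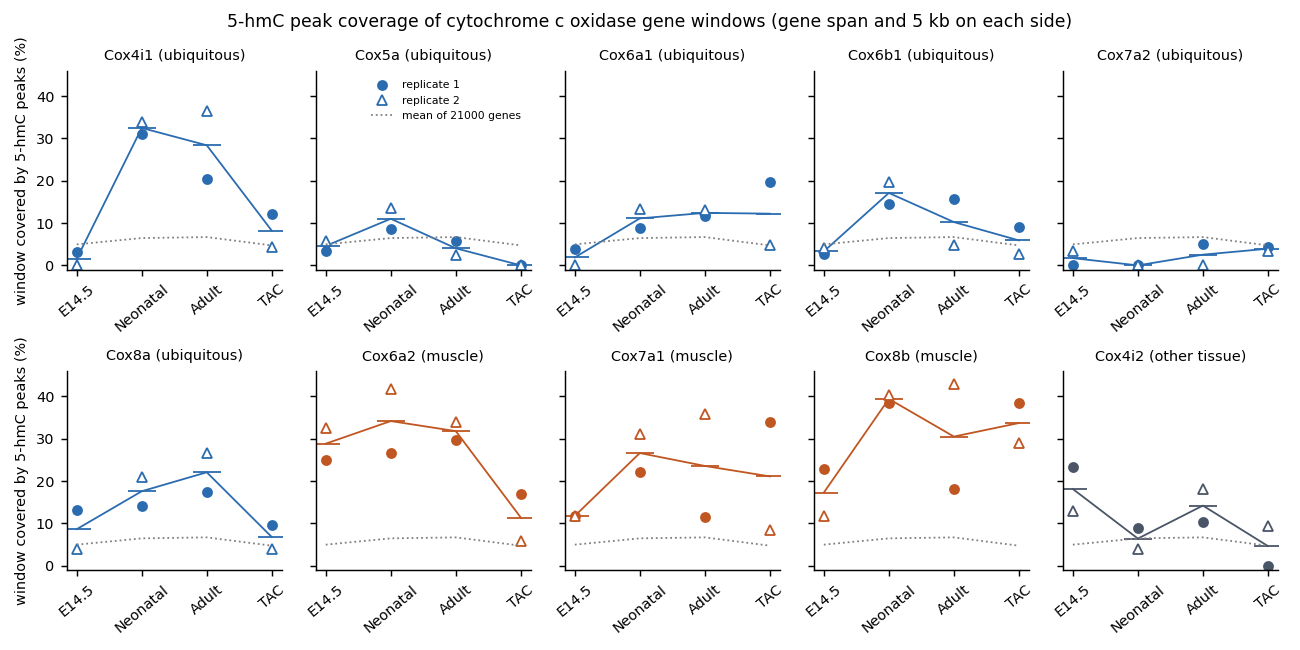
Percent of the window of each gene covered by 5-hmC peaks (y axis) at the 4 points (x axis), with filled circles for replicate 1, open triangles for replicate 2, dashes joined by a line for the mean of 2, and a dotted line for the mean of all 21000 genes. Cox4i1 lies at 0% to 3.13% at E14.5 and at 31.1% and 33.8% in neonatal CMCs, and the 3 muscle isoforms lie above the dotted line in every list.

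Cox4i1, the main isoform of the subunit that makes the enzyme sensitive to ATP, showed the pattern for which it was picked. Its window was covered to 3.13% and 0% (E14.5), 31.1% and 33.8% (neonatal), 20.3% and 36.4% (adult) and 12.1% and 4.27% (TAC). The neonatal and adult lists are high and the E14.5 and TAC lists low, with no overlap between them. On the GB alone (chr8:120668225-120674209, plus strand) the values were 8.37% and 0%, then 77.3% and 85.2%, then 21.02% and 54.1%, and in TAC 17.5% and 8.37%. The GB was thus most covered in neonatal CMCs, where a stretch of 4032 bases, from 887 to 4918 bases after the start, was shared by both replicates, and no base was shared at E14.5 or in TAC. In adult CMCs 1692 bases were shared in 3 regions, of which 434 lay before the start, at -2758 to -2325, and all peak bases of this 5′ flank lay on the neighbours Emc8 or Gm27021.

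The wide neonatal peaks of Cox4i1 included a dinucleotide repeat. A run of 10 or more TG on either strand (TG on one strand reads CA on the other), of 50 bases here, lies 3364 to 3413 bases after the start, and it was inside the 4127 and 5405 bp peaks of the neonatal lists and the 3114 bp peak of adult replicate 2. Without every peak that holds such a run, the window was covered to 3.13% and 0% (E14.5), 5.30% and 0% (neonatal), 17.2% and 16.9% (adult) and 12.1% and 4.27% (TAC), so that the E14.5 and neonatal replicates overlapped. When only the bases within 250 bases of a run were left out, the neonatal values were 29.7% and 32.6% and E14.5 was at 3.37% and 0%.

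Such runs were unevenly spread over the lists. Of the peaks of 501 bp, the commonest width, 17.7% held a run in E14.5 replicate 2, 15.1% in neonatal replicate 2 and 12.1% in adult replicate 2, against 4.21% to 5.09% in the other 5 lists and 4.90% of autosomal tiles of that length. A run occurred in 6 of the 10 oxidase windows and in 82.9% of all gene windows, and lay under a peak at Cox4i1, Cox4i2, Cox6a2 and Cox7a1. Removing peaks that hold a run lowered the mean coverage of Cox4i1 from 17.6% to 7.37%, of Cox6a2 from 26.5% to 11.5% and of Cox7a1 from 20.8% to 10.2% and of Cox4i2 from 10.8% to 9.13%, and left those of Cox5a, Cox6a1, Cox6b1, Cox7a2, Cox8a and Cox8b as they were. The TATG-rich stretch of Cox8b does not count as such a run, so the peaks over it were not removed. The part of the repeats in the peaks was not tested.

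**Figure D2:**
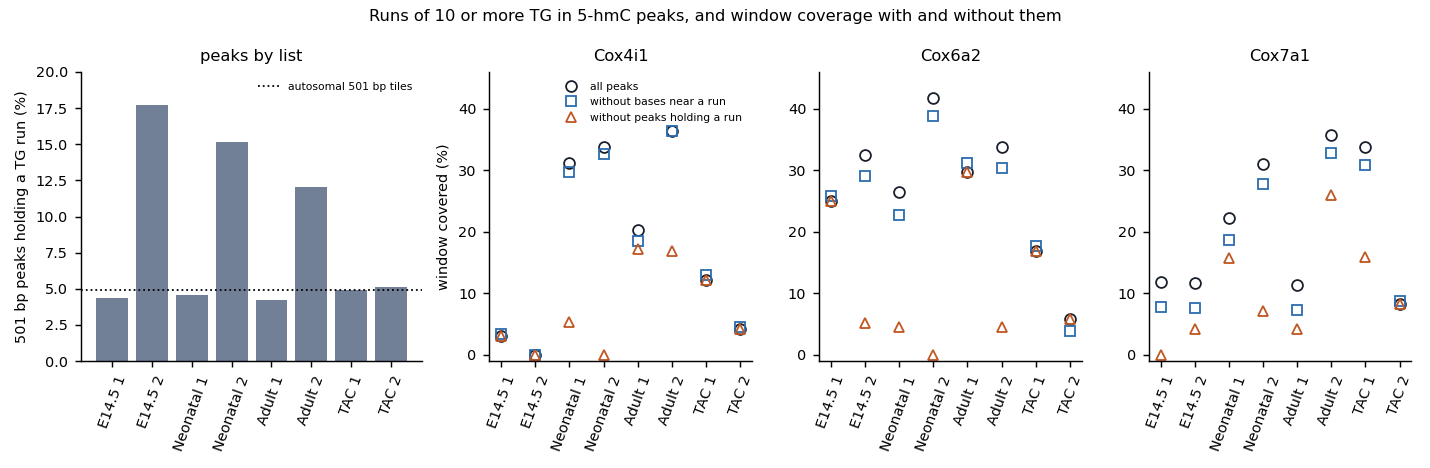
Left, percent of 501 bp peaks holding a run of 10 or more TG (y axis) in each of the 8 lists, with a dotted line at 4.90% for autosomal tiles. Right, percent of the window covered in each list for Cox4i1, Cox6a2 and Cox7a1 with all peaks (circles), without bases within 250 bases of a run (squares) and without peaks holding a run (triangles), which takes the neonatal values of Cox4i1 to 5.30% and 0%.

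Among 16315 genes with a peak in at least 4 lists and windows apart from Cox4i1, Osbpl3 (an oxysterol-binding protein, Pearson r = 0.980) and Micos10 (a subunit of the complex that shapes mitochondrial cristae, r = 0.979) were among those that followed it most closely over the 8 lists. The likeness is a description over 8 points, and the depth and peak width of each list enter the values of all these genes.

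The other ubiquitous isoforms had lower coverage. Cox5a, a matrix-side subunit, had 3.40% and 5.79% (E14.5), 8.48% and 13.5% (neonatal), 5.71% and 2.36% (adult) and 0% and 0% (TAC). Its peaks changed place: the GB (chr9:57521232-57532427, plus strand) was covered to 6.44% and 10.97%, then 16.1% and 25.6%, and no peak touched it in the 4 adult and TAC lists. In adult CMCs both replicates shared 447 bases beyond the 3′ end, 12580 to 13026 bases after the start.

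Cox6a1 (chr5:115345652-115348958, minus strand), the ubiquitous form of the regulatory subunit 6a, had 3.76% and 0% (E14.5), 8.80% and 13.4% (neonatal), 11.7% and 13.1% (adult) and 19.7% and 4.70% (TAC). Both E14.5 lists are low, both neonatal and both adult lists higher, and the TAC lists, both above the E14.5 lists, lie far apart. Its GB had no peak at E14.5 and was covered to 31.9% and 31.7% in neonatal CMCs, at the end of the gene. Both neonatal replicates shared 1165 bases there, and both TAC replicates shared 377 bases beyond the 3′ end.

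Cox6b1 (chr7:30616971-30626114, minus strand), a subunit of the face toward cytochrome c, had 2.62% and 3.99% (E14.5), 14.6% and 19.7% (neonatal), 15.6% and 4.82% (adult) and 9.18% and 2.62% (TAC). Its neonatal lists lie above both E14.5 lists, and the adult replicates disagree. The 2 neonatal replicates shared 2219 bases in 3 regions, of which 1 reached from 2329 to 3562 bases after the start.

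Cox8a (chr19:7215158-7217616, minus strand), the ubiquitous form of the smallest subunit, had 13.2% and 4.02% (E14.5), 14.2% and 20.9% (neonatal), 17.5% and 26.6% (adult) and 9.51% and 4.02% (TAC). The neonatal and adult lists are the higher ones, and TAC lies in the range of E14.5. Only 7.77% of its covered bases lay on the GB, and its most shared stretch, 169 bases in 6 lists, lay before the start, at -4262 to -4094, in a window with no other gene.

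Cox7a2 (chr9:79755241-79759853, minus strand), the ubiquitous form of subunit 7a, had a peak in 4 of the 8 lists and none on the GB. Its coverage was 0% and 3.43% (E14.5), 0% and 0% (neonatal), 5.06% and 0% (adult) and 4.45% and 3.43% (TAC), and no point had a base shared by both replicates.

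By the mean over the 8 lists the muscle isoforms had the highest coverage, most of it beyond the genes. Cox8b (chr7:140898942-140900446, minus strand), the heart and muscle form of subunit 8, had 22.8% and 11.7% (E14.5), 38.5% and 40.3% (neonatal), 18.1% and 42.9% (adult) and 38.3% and 29.0% (TAC). The E14.5 lists lie below the neonatal lists, and the adult replicates enclose both TAC lists. The GB followed another course, with 33.0% and 33.3% (E14.5), 65.9% and 72.1% (neonatal), 0% and 11.2% (adult) and 5.25% and 0% (TAC). Both neonatal lists were thus above all others on the GB, and all adult and TAC lists were below both E14.5 lists. The TATG-rich stretch printed above, 3438 to 3620 bases after the start, was under a peak in every list.

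Cox6a2 (chr7:128205435-128206366, minus strand), the muscle form of subunit 6a, had 25.1% and 32.6% (E14.5), 26.5% and 41.8% (neonatal), 29.7% and 33.9% (adult) and 16.9% and 5.82% (TAC). The window was lower in both TAC lists than in any other. Its GB of 932 bp was covered to 81.9% and 88.7% at E14.5 and to 0% in each of the 6 later lists. Of all bases covered in the window, 88.8% lay beyond the 3′ end on Itgad or 4931431B13Rik. A TG run 2175 to 2212 bases after the start lay in peaks of 4 lists, among them E14.5 replicate 2, whose peak of 3001 bp was also the one over the GB. The GB peak of E14.5 replicate 1 held no run, and the window of that list stayed at 25.1% without peaks that hold a run, against 5.12% in replicate 2.

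Cox7a1 (chr7:30184171-30186030, plus strand), the heart and muscle form of subunit 7a, had 11.8% and 11.7% (E14.5), 22.2% and 31.0% (neonatal), 11.4% and 35.7% (adult) and 33.8% and 8.35% (TAC). The E14.5 lists agree closely, and the adult and TAC replicates lie far apart. The GB was covered to 73.7% in neonatal replicate 1 and 2.74% in replicate 2, 26.9% in TAC replicate 1 and 0% in the other lists. The stretch of 704 bases shared by 7 lists includes a TG run of 20 bases, and without peaks that hold a run the window had 0% and 4.22% at E14.5 and 15.8% and 7.07% in neonatal CMCs.

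Cox4i2 (chr2:152754173-152765037, plus strand), the isoform known from lung and low oxygen, was high at E14.5, where Cox4i1 was low. It had 23.3% and 12.9% (E14.5), 8.79% and 4.01% (neonatal), 10.2% and 18.2% (adult) and 0% and 9.27% (TAC). The E14.5 lists lie above the neonatal lists, the adult lists above the neonatal lists and the TAC lists below the adult lists. Without peaks that hold a TG run, E14.5 (23.3% and 3.11%) and neonatal (8.79% and 4.01%) overlapped. On the GB alone they overlapped too, with 29.7% and 2.25% (E14.5) and 12.3% and 0% (neonatal). Of its covered bases 45.96% lay beyond the 3′ end, on the neighbour Bcl2l1, an inhibitor of apoptosis. Bcl2l1 fills 54.2% of the window and also overlaps the GB, where some intron peaks lie on both genes.

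**Figure D3:**
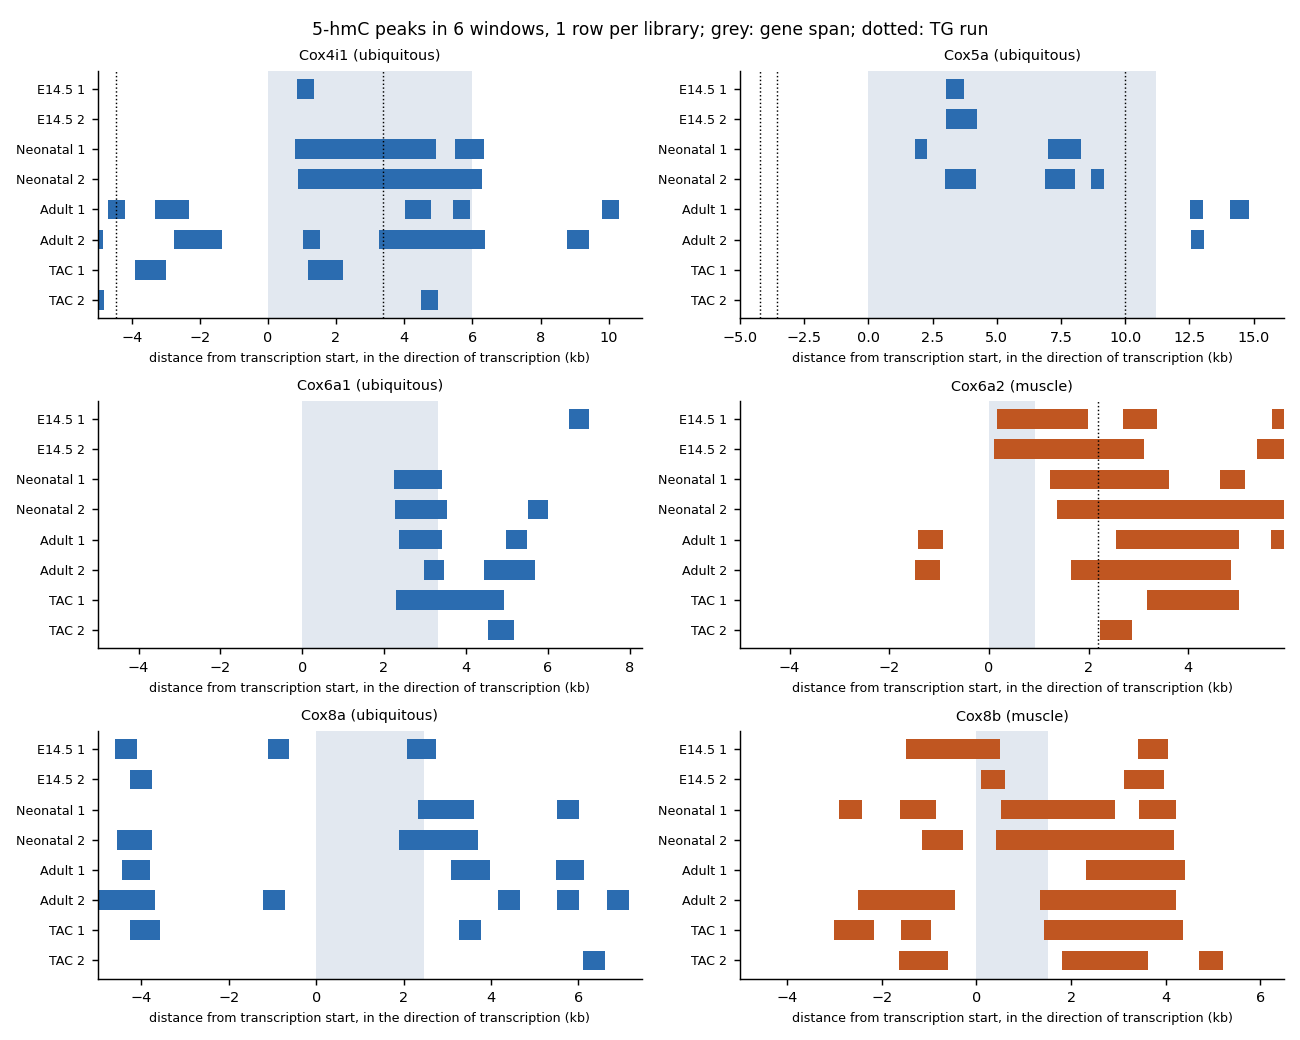
Peaks in 6 windows, 1 row for each of the 8 lists, by distance from the transcription start in kb in the direction of transcription (x axis), with the gene span in grey and TG runs as dotted lines. The Cox6a2 span holds peaks only in the 2 E14.5 lists, the Cox5a span in none of the 4 adult and TAC lists, and at Cox8b all 8 lists hold a peak beyond the end of the gene.

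The mean of the muscle isoforms was above that of the ubiquitous ones in every list, while single genes overlapped: Cox7a1 exceeded Cox4i1 in 4 of 8 lists. The mean over the 6 ubiquitous genes was 3.61% ± 1.05 (SD, n = 2) for E14.5, then 14.9% ± 2.85 (neonatal), 13.3% ± 0.876 (adult) and 6.17% ± 4.24 (TAC). The mean over the 3 muscle genes was 19.3% ± 0.888, 33.4% ± 6.08, 28.6% ± 12.5 and 22.0% ± 10.8 at the same points. The ubiquitous mean includes Cox4i1, picked for its neonatal coverage, which differed by 30.9 points from E14.5 to neonatal CMCs. The course of the ubiquitous mean is thus partly set by that choice, and nothing is read from it. The ubiquitous mean lay below the muscle mean in 8 of 8 lists, with a mean difference of -16.35 percentage points, and by -7.09 to -23.6 points in single lists. By pairs, Cox8b exceeded Cox8a in 8 of 8 lists (mean difference 16.5, SD 9.78 points), Cox7a1 exceeded Cox7a2 in 8 of 8 (18.7, SD 12.3) and Cox6a2 exceeded Cox6a1 in 7 of 8 (17.1, SD 12.3). Cox4i2 exceeded Cox4i1 in 3 of 8 lists, both at E14.5 and TAC replicate 2.

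The 2 classes differed in where the peaks lay. Of the bases covered in ubiquitous windows, 55.1% lay on the GB and 7.99% on other genes outside it, whereas in muscle windows 9.67% lay on the GB, 74.0% in the 3′ flank and 65.6% on other genes. These shares also carry gene length: the muscle GBs span 932 to 1860 bp and the ubiquitous GBs 2459 to 11196 bp. As a percent of the GB itself, mean coverage over the 8 lists was 13.0% (ubiquitous) and 20.6% (muscle). The muscle windows are crowded: other genes fill 40.9% to 61.1% of them, against 0% to 30.8% of the ubiquitous windows. On the GB alone the muscle mean was 39.5% (E14.5), 35.7% (neonatal), 1.87% (adult) and 5.36% (TAC), and the ubiquitous mean was 3.86%, 29.3%, 12.6% and 6.30% in that order, while the mean of all genes moved between 5.25% and 7.71%. The order of the classes on the GB was thus not the order on the window. The ubiquitous mean was above the muscle mean in both adult lists, in both TAC lists and in neonatal replicate 2 (32.8% against 24.9%). The ubiquitous mean includes Cox4i1, picked for its neonatal coverage, with 77.3% and 85.2% of its GB covered in neonatal CMCs. In TAC replicate 2 only Cox4i1 of the ubiquitous genes had a peak on the GB. Nothing is therefore read from the order of the classes in the neonatal and TAC lists. The muscle mean is over 3 short genes, of which Cox6a2 had 81.9% and 88.7% at E14.5 and 0% in all later lists. In the 3′ flank the muscle mean was 28.3%, 54.6%, 52.8% and 38.9%, against at most 15.9% for the ubiquitous genes.

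**Figure D4:**
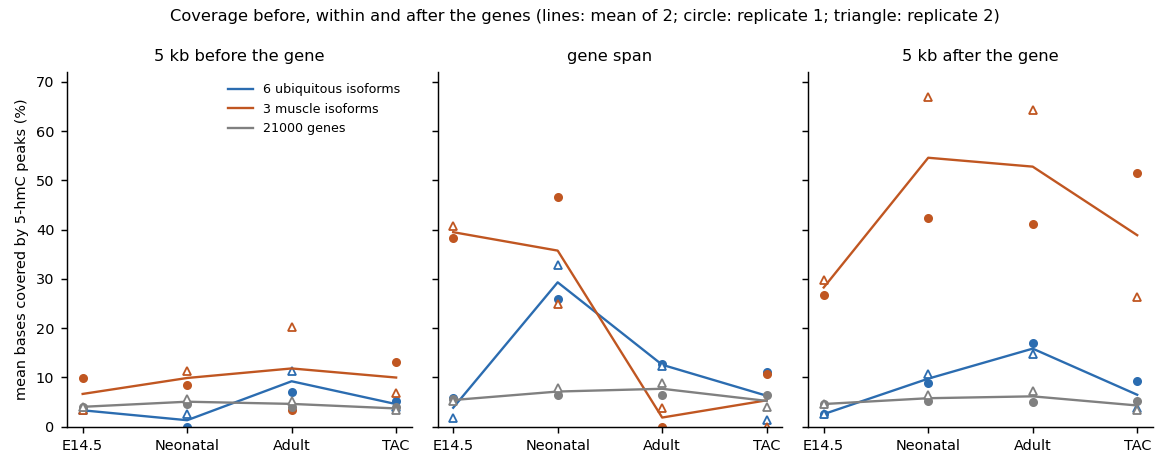
Mean percent of bases covered by 5-hmC peaks (y axis) in the 5 kb before the gene, on the gene span and in the 5 kb after it, at the 4 points (x axis), for the 6 ubiquitous isoforms, the 3 muscle isoforms and all 21000 genes. Lines join the means of 2 replicates, shown as circles and triangles. On the gene span the muscle mean goes from 35.7% in neonatal to 1.87% in adult CMCs. The ubiquitous mean includes Cox4i1, which was picked for its neonatal coverage.

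Few peaks lay at transcription starts. Within 1 kb of the start no list had a peak at Cox5a, Cox6a1 or Cox7a2, and the mean was 0.281% at Cox6b1, 2.92% at Cox4i1 and 4.19% at Cox8a, against 4.68% over all genes. The muscle starts were more covered, with 30.7% at Cox8b, 11.4% at Cox6a2 and 9.80% at Cox7a1. At Cox6a2 the value came from E14.5 (41.6% and 44.8%), and at Cox8b 7 of the 8 lists had a peak. RefSeq promoter sequences of 300 bases, 250 before and 50 after the start, were found for 7 of the 10 genes. The CpG count was 35 in Cox5a, 32 in Cox6a1, 20 in Cox7a2, 19 in Cox8a and 17 in Cox6b1, and 7 in Cox7a1 and 2 in Cox8b, with a median of 7 over 32851 promoters. The starts with few or no peaks were thus those with many CpG, an ordering over 7 genes that is given as a description.

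Motifs of factors known to act on genes of the respiratory chain were searched on both strands of these 7 promoters, and a base could belong to several motifs. GCGCATG, the core of the motif of nuclear respiratory factor 1, occurred in Cox6a1 and in 3.91% of all promoters. CCGGAAG, of the ETS family that includes the respiratory factor GABP, occurred in Cox6a1, Cox6b1 and Cox8a and in 8.86% of all. AAGGTCA, of the oestrogen-related receptors, occurred in none of the 7 and in 4.72% of all, and TATAAA occurred in Cox8b and in 13.6% of all. A match describes letters only.

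From E14.5 to neonatal CMCs, 7 of the 10 windows were higher in both later replicates than in both earlier ones, where 23% of all genes were. These were Cox4i1, picked for this step, Cox5a, Cox6a1, Cox6b1, Cox7a1, Cox8a and Cox8b, that is 5 of 6 ubiquitous and 2 of 3 muscle isoforms. The median difference was 9.09 percentage points, against 0.338 over all genes. Only Cox4i2 was lower in both replicates, where 5.98% of all genes were. Since this contrast served to pick Cox4i1, nothing is read from the count. Without peaks that hold a TG run 6 windows were higher (22.2% of all genes), and on the GB alone 6 were (19.8% of all genes). In both settings Cox6a2, and not Cox4i2, was the lower one. Both E14.5 lists were scaled by the control and the neonatal lists 1 by the control and 1 by the precipitate, and the part of the scaling was not tested. The summed coverage of the 9 cardiomyocyte markers was 219 and 165 at E14.5 and 264 and 290 in neonatal CMCs, with at most 1 marker at 0. The endothelial sums were 48.6 and 49.4, then 31.6 and 68.8, and the fibroblast sums 27.8 and 31.4, then 22.4 and 28.5. The part of these markers in the result was not tested.

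From neonatal to adult CMCs, 1 window was higher, that of Cox4i2, and 1 lower, that of Cox5a, where 14.1% and 19.4% of all genes were. The median difference was -2.71 points. Without adult replicate 1 the number of higher windows was 5 and without neonatal replicate 2 it was 4. With 1 list left at a point the lists separate more easily, and shares over all genes are not given, so nothing is read from these numbers. On the GB alone 6 genes were lower in both adult replicates, where 16.6% of all genes were, namely Cox4i1, Cox5a, Cox6a1, Cox7a1, Cox8a and Cox8b. Cox4i1 was picked for its high neonatal values, which favours a lower adult value, so nothing is read from this count. The adult lists held 104215 and 121214 peaks and the neonatal lists 137172 and 153637, and the summed cardiomyocyte markers were 121 and 173 in adult CMCs, below both neonatal lists. The fibroblast sums, 12.2 and 14.8, were below both neonatal lists too, and the endothelial sums, 33.6 and 39.7, lay between them. The part of the peak numbers and of these markers in the lower GB values was not tested.

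From adult to TAC CMCs, 5 windows were lower in both TAC replicates and 0 higher, where 21% and 5.61% of all genes were. They were Cox4i1, Cox4i2, Cox5a, Cox6a2 and Cox8a, and the median difference was -4.18 points against -0.403 over all genes. Cox6a2 and Cox4i1 had the largest differences, -20.4 and -20.2 points, and Cox8a differed by -15.3 points. Without peaks that hold a TG run 4 windows were lower (19.4% of all genes), since Cox6a2 then overlapped. On the GB Cox4i1 and Cox4i2 were lower, but the share over all genes is not given there, so nothing is read from this. Leaving out TAC replicate 1 made 8 windows lower, and leaving out TAC replicate 2, the list that stands apart, left 5. In the first case the lone TAC list is replicate 2, the list with the lowest coverage. With 1 list against 2 the lists separate more easily, and shares over all genes are not given, so nothing is read from these counts. The summed cardiomyocyte markers were 121 and 89.3 in TAC CMCs, and the fibroblast sums 13.1 and 23.0 against 12.2 and 14.8 in adult CMCs. The endothelial sums were lower in both TAC lists, 23.2 and 26.8 against 33.6 and 39.7. The part of these markers in the result was not tested. Both TAC lists were scaled by the precipitate and the adult lists 1 by the control and 1 by the precipitate, and the part of the scaling was not tested.

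For each of the 21000 genes, a one-sided exact permutation test compared the labelled pairs of lists with all 105 ways to form 4 pairs. With Benjamini-Hochberg adjustment 0 genes passed 0.05 (0%), the lowest adjusted p being 0.656, and the smallest p the divisions allow is 0.00952. Unadjusted, 1398 genes (6.66%) and 1 of the 10 oxidase genes, Cox5a with p = 0.0190 in the exact test, were under 0.05. The limma F-test called 0 of 19083 genes after adjustment and 2289 before it, with Cox5a and Cox6a2 among the latter. Cox4i1 was under 0.05 in limma as well, but it was picked on these values, so this is no test of it. For each single step, 2 lists against 2, the smallest two-sided p would be 0.333, so no step was tested.

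The other genes of complex IV were counted in the same way. From E14.5 to neonatal CMCs 1 of 9 other subunits was higher and 1 lower, and of 22 assembly factors 5 were higher and 1 lower, where 23% and 5.98% of all genes were, so the assembly factors were near the background. Among these genes, whose replicates do not overlap, the largest positive differences were those of Cox6c, a small subunit, from 3.08% and 0% to 14.2% and 4.66%, and of Cycs, cytochrome c itself, from 4.51% and 3.58% to 9.12% and 13.0%. The negative differences among them were those of Cox8c, a testis form of subunit 8, from 12.8% and 5.60% to 4.46% and 0%, and of Pet100, an assembly chaperone, from 10.004% and 4.98% to 3.95% and 3.95%.

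From neonatal to adult CMCs 9 of 22 assembly factors were higher and 1 lower, while 0 of 9 other subunits were higher and 3 lower, where 14.1% and 19.4% of all genes were. The genes named next are again the largest differences among those whose replicates do not overlap. Surf1, an assembly factor whose loss causes Leigh syndrome, went from 10.6% and 20.1% to 30.0% and 21.8%, and Cox10, which makes the precursor of haem a, from 9.72% and 12.2% to 16.2% and 24.9%. Cox17, the copper chaperone of the enzyme, went from 14.1% and 30.8% to 2.52% and 5.51%, and Cox6c to 0% in both adult lists. In TAC CMCs 6 of 22 assembly factors were lower and 0 higher, near the 21% and 5.61% of all genes. Surf1 went to 15.3% and 7.62%, and Cox19, a copper-handling protein, from 26.0% and 16.1% to 13.4% and 3.63%, while Cox6c was the only other subunit that was higher, at 6.56% and 3.08%. Of the electron carriers Cycs and Cyct, 1 was higher in neonatal CMCs, 1 lower in adult CMCs and 0 were higher or lower in TAC CMCs.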

How the data were processed

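The 8 hMeDIP samples with a peak list were used, grouped by their labels into E14.5, neonatal, adult and TAC with 2 replicates each. Input libraries and the sh-control libraries were not analysed here. Per the submitters' processing notes and the study's methods, the authors aligned reads to mm10 with BWA 0.7.4-r385, marked duplicates with Picard and called peaks per replicate against input with HOMER. The deposited lists give chromosome, start and end of each peak and a score, which is 1 for every peak, so that height and read depth are unknown and values have no counting interval. The input to HOMER was scaled differently between lists, per the file headers.

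Peaks were merged within a list, and the percent of each window (RefSeq gene span with 5 kb on each side, GRCm38) covered by peaks was computed for 21000 protein-coding genes with Python 3.11.15, numpy 2.4.6 and pandas 2.3.3. Counts of windows compare replicates that do not overlap. The exact permutation test and limma 3.58.1 (on the square root of the percent, 19083 genes with a peak) were run on all genes with Benjamini-Hochberg adjustment. P-values measure only the spread between these samples. Coverage was checked against bedtools 2.31.1 and the tests were tested on simulated data. Runs of 10 or more TG were found in the genome sequence, and a peak holds a run if at least 20 bases of it lie inside.

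The 10 genes, the gene lists and the markers were chosen with earlier results of these data known. All 10 are named. Of the other complex IV genes and carriers, the 2 largest rises and 2 largest falls per step among those whose replicates do not overlap are named, and for Cox4i1 the 3 genes with the highest Pearson r, of which 1 is not reported here. Neighbouring genes are named where a peak lies on them. Alternatives were a window of 2 kb, the gene span alone, equal numbers of peaks, scaling by autosomal coverage, counts of peaks, peaks widened by 500 bp, the GENCODE M21 annotation, each list left out in turn, a replicate block and limma. The 2 alternatives on TG runs were chosen after seeing the data.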

Additional observations from a re-analysis of the deposited data

How the results depend on the processing

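No window counted as higher or lower changed sign under any alternative, nor did the class difference, and the GENCODE annotation changed no count. The genes behind a count did change. From adult to TAC the differences of Cox5a, Cox6a2 and Cox8a were 0 on the gene span. Cox6a2, at 5.33 points from E14.5 to neonatal and not counted, was at -85.3 on the gene span and -12.8 without peaks that hold a TG run. It replaced Cox4i2 as the lower gene in both. With 7 higher and 1 lower window from E14.5 to neonatal, 1 and 1 from neonatal to adult, 0 and 5 from adult to TAC, 1 gene with an unadjusted p under 0.05 and a class difference of -16.35 points as reported, the counts that moved by over 1.5 times and the class differences that moved by over the replicate SD were these. With a window of 2 kb, 3 genes were under 0.05, 2 windows were lower in neonatal and 4 in adult CMCs, and the class difference was -23.4. With the gene span alone the values were 3 genes (Cox4i1, Cox5a and Cox8b), 6 lower in adult and 2 lower in TAC CMCs, and -7.61. Counts of genes under 0.05 are over all 10 and can include Cox4i1, which was picked on these values, so they are no test of it. With equal numbers of peaks 0 were lower in neonatal and 2 higher in adult CMCs. Relative to autosomal coverage 3 were higher in adult and 1 in TAC CMCs, and the class difference was -4.42, in units of that ratio. By number of peaks 0 genes were under 0.05, 2 windows were higher and 0 lower in neonatal, 2 higher in adult and 1 higher in TAC CMCs, and the class difference was -0.48 peaks. With widened peaks the values were 3 genes, 4 higher and 2 lower in adult CMCs, and -23.3. Without peaks that hold a TG run 2 were higher in adult CMCs, and the class difference was -9.53, within the replicate SD. Smaller moves were 6 higher neonatal windows with the gene span alone, equal numbers of peaks, autosomal scaling, widened peaks or no peaks that hold a TG run, and 4 lower TAC windows with autosomal scaling or no such peaks. The causes were not tested, apart from what each setting leaves out. Shares over all genes are not given for most of these settings, so nothing is read from the moved counts.

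Leaving out each list in turn gave 0 to 2 genes under 0.05, 7 to 8 higher and 1 to 2 lower windows in neonatal, 1 to 5 higher and 1 to 4 lower in adult, 0 to 1 higher and 5 to 8 lower in TAC CMCs, and class differences of -17.67 to -15.31. Lower adult windows numbered 4 without neonatal replicate 1 or adult replicate 2. The lone list of a point then stood alone in these counts, so lists separate more easily. Shares over all genes are not given for them, and nothing is read from these counts.

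The replicate numbers do not pair the samples: deviations of same-numbered lists from their point means correlated between -0.241 and 0.208. With the replicate block 0 of the 10 genes were under 0.05 unadjusted, and over all genes 923 unadjusted and 0 after adjustment. The limma F-test had 3 of the 10, among them Cox4i1, which was picked on these values. No setting gave an adjusted p under 0.05. Peak lists carry no read counts, so what depth limits could not be measured.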
